A study of Mus musculus with 15 samples.

Results

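The mitochondrial ribosomal protein genes are the nuclear genes for the protein part of the ribosome that works inside mitochondria. They were taken as every gene whose symbol is Mrpl or Mrps followed by a number, with pseudogenes (symbols with -ps) left out. This gave 76 of the 37991 genes in the deposited count table, and 73 of them were among the 12188 genes with enough counts for testing. By structural role, 49 members belong to the large subunit of the mitochondrial ribosome, 26 to the small subunit, and 1, Mrps36, to no subunit in mammals although its symbol says so.

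RNA was sequenced from whole inguinal fat, a white depot under the skin, of C57BL/6 mice aged 8 weeks, in 3 genotypes with 5 libraries each. The WT libraries came from mice with floxed LKB1 alleles (LKB1 F/F) and no Cre. The KO libraries came from mice with AdipoqCre and LKB1 F/F, and the dKO libraries from mice with AdipoqCre, LKB1 F/F and HDAC4 F/F, so all 3 groups carried the floxed LKB1 alleles. LKB1 is a kinase upstream of AMPK and HDAC4 is a class IIa histone deacetylase. AdipoqCre is active in adipocytes, so other cells of the depot keep the intact alleles, and in RNA from whole tissue fewer cells of a type and less RNA per cell cannot be told apart.

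The mitochondrial ribosome makes the few proteins that mitochondrial DNA encodes, all of them membrane subunits of the respiratory chain and of ATP synthase. Its ribosomal RNAs come from mitochondrial DNA, whereas its proteins are made in the cytosol and imported, so that both genomes have to supply parts of one particle. Compared with its bacterial relatives it has lost RNA and gained proteins, some of which have no bacterial counterpart. In fat, thermogenic brown and beige adipocytes hold many mitochondria and white adipocytes few.

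The promoters of the members were searched for short motifs. Those of the 3 members with the highest log2 fold change in KO are printed here. Printed too are those of 2 of the 3 members with the highest in dKO against KO. Each window runs from 250 bases before to 50 bases after the RefSeq start of the gene on GRCm38.p6 and reads 5′ to 3′ on the strand of the gene. Capitals mark a match, on either strand, to any of the 7 motifs searched, which are spelled out after the sequences.
Mrps33: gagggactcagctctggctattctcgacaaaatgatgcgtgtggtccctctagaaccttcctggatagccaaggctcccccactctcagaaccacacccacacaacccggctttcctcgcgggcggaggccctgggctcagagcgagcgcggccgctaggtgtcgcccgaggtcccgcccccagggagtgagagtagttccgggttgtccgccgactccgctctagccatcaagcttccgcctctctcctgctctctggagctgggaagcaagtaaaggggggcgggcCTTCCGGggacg
Mrps22: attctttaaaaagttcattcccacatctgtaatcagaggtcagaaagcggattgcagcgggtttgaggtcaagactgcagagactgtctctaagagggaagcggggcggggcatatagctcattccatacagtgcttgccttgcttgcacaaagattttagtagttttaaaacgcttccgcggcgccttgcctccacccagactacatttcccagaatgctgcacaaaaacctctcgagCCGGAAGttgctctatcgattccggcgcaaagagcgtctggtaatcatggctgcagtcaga
Mrpl40: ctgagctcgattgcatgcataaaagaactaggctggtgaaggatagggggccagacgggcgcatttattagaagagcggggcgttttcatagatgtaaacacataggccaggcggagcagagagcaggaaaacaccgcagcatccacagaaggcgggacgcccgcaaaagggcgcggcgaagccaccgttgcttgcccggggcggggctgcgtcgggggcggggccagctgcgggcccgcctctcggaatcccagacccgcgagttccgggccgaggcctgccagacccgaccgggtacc
Mrpl12: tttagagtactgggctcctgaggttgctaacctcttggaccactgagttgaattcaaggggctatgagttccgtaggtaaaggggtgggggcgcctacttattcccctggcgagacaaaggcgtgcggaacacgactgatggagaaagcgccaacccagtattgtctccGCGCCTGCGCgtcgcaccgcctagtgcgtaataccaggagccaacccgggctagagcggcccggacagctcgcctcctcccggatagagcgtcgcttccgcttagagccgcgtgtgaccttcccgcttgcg
Mrpl27: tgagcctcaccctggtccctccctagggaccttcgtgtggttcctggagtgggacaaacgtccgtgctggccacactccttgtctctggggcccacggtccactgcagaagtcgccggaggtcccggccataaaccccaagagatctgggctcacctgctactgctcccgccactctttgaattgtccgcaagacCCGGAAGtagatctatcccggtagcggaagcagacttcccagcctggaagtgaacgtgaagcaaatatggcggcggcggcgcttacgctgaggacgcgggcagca
The windows lie at chr6:39810887-39811186, minus strand for Mrps33, chr9:98601630-98601929, minus strand for Mrps22, chr16:18876588-18876887, minus strand for Mrpl40, chr11:120484387-120484686, plus strand for Mrpl12 and chr11:94653541-94653840, plus strand for Mrpl27. Mrps33, Mrps22 and Mrpl27 held the ETS family motif CCGGAAG, in Mrps33 on the opposite strand. Mrpl12 held the NRF1 motif, which is GCGC, any base and TGCGC, the letters bound by nuclear respiratory factor 1, a regulator of nuclear genes for mitochondrial proteins. Mrpl40 held none of the 7 motifs.

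RefSeq windows were matched for 67 of the 76 members, 73 windows in all. The NRF1 motif was in 16.4% of member windows and 4.6% of all 32851 windows. The ETS family motif was in 32.9% against 8.86%, and the YY1 motif AAGATGGC in 16.4% against 2.75%. At least 1 of these 3 was in 41 member windows, which is 56.2% against 14.7% of all windows. By contrast, TATAAA was in 6.85% of member windows against 13.6%. The estrogen-related receptor motif TCAAGGTCA was in none of the 73 against 0.423%, a share too low for 73 windows to show a deficit. The CREB motif TGACGTCA was in 2.74% against 1.79%, and the MEF2 family motif, which is CTA, any 4 bases and TAG, bound by factors that class IIa histone deacetylases repress, in 8.22% against 3.69%. ETS family and YY1 matches can share the letters AAG, and a window with both was counted once for each. The median GC content was 58.3% in member windows and 52.7% in all windows. All windows were neither limited to tested genes nor matched for GC content. The higher shares may therefore not be particular to this family. A match of letters describes the window and says nothing of binding.

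**Figure D1:**
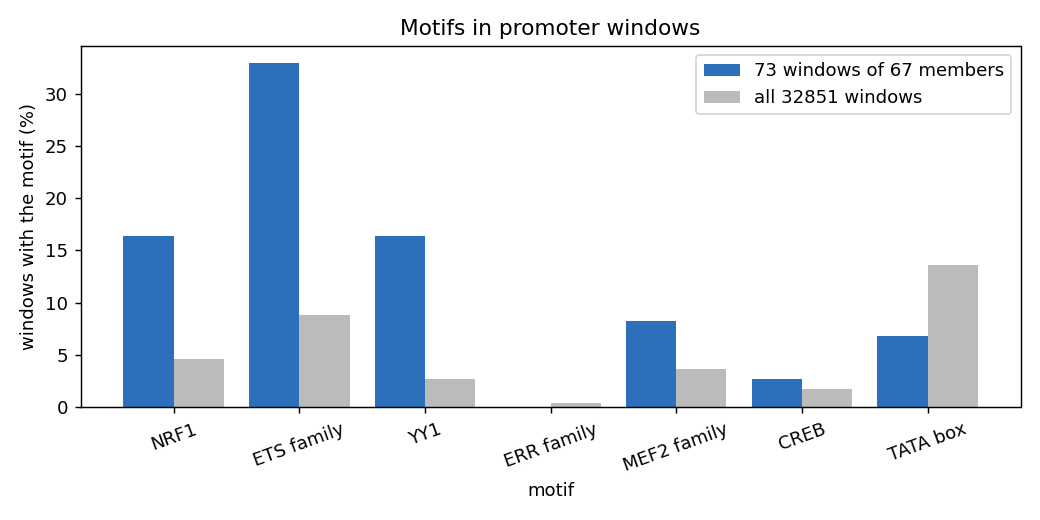
Share of promoter windows (y axis, %) that hold each of 7 motifs (x axis), for the 73 windows of 67 members (blue) and for all windows (grey). The ETS family, NRF1 and YY1 bars of the members are above those of all windows, and the TATA bar is below.

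Total counts per library were between 1564004 and 21570688, and mt-Rnr1 with mt-Rnr2, the ribosomal RNAs of mitochondria, made up 33.5% to 50.03% of them. The members together had 1390 to 23274 counts per library. The thinnest, dKO replicate 3, had 17 members under 10 counts, those too low to test included. LKB1 is encoded by Stk11, which was between 22.2 and 37.8 CPM (read counts scaled to the TMM-normalised library totals of the tested genes) in WT, 11.6 and 22.5 in KO and 16.6 and 22.7 in dKO. Its log2 fold change in KO was -0.69 (SE 0.18, adjusted p = 0.115), and 4 of 5 KO libraries were below every WT library. Hdac4 is listed as 2 features with log2 fold changes of -0.04 and -0.03 for dKO against KO, so these counts do not check the dKO label. The 8 adipocyte markers were detected in every library, and the 7 epithelial markers were too low to test.

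2 dKO libraries stood apart from the other 3. They are labelled 1753 and 1753-2, and the labels do not say whether they came from 1 mouse. They are dKO replicates 4 and 5 here. Their counts differed from each other by more than counting noise, with a chi-square per degree of freedom of 4.60, so they are not 1 library deposited again. That value was close to the lowest between KO libraries, 4.48, and does not show whether the pair came from separate mice, so an n of 5 for dKO may count 1 mouse more than once. The same measure also rises with the counts of the libraries compared, which were unlike, so its ranges are not on 1 scale. It was 19.8 to 43.2 between either of them and another dKO library, 4.90 to 15.97 among the other 3 and 4.48 to 28.6 among the KO libraries. The counts and medians for dKO are therefore given with and without the pair. Each library had its own barcode, and those numbered 12 to 16 were the dKO ones. No barcode was shared between genotypes, so an effect of barcode cannot be told apart from genotype in any comparison.

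Across the family the WT levels per transcript length were moderate. The median of the 73 tested members was 5.20 CPM per kilobase, beside 4.64 for all genes tested. Mrpl42, a large-subunit protein specific to mitochondria, led with 31.03 ± 8.37 CPM per kilobase (SD, n = 5). Mrpl52 followed with 18.00 ± 3.38 and Mrpl4 with 15.3 ± 2.63 CPM per kilobase. The lowest were Mrps26 with 2.03 ± 0.461, Mrps11 with 1.60 ± 0.289 and Mrps25 with 1.59 ± 0.372 CPM per kilobase. Mrpl42 was above the next gene by more than its SD, and Mrpl52 and Mrpl4 differed by less than the SD of Mrpl52. Mrps11 and Mrps25 were within 1 SD of each other.

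3 members were too low to test. Mrpl53 had 0 counts in all 15 libraries, which allows up to 3 counts in the 82400489 of all libraries together, or 0.0364 CPM of total counts, for counting error only. Ccdc142 overlaps 87.1% of its exon bases on the same strand. Mrps34 had 32 counts over 10 libraries, with 77.8% of its exon bases overlapped by other genes. Mrps18b had 2 to 43 counts per library and 188 in all. In total 26 of the 76 members share exon bases with another gene and 50 do not. For the 26, reads from the shared bases cannot be assigned with certainty. With the other gene on the opposite strand, the strand setting of the counting matters, and the sources used here do not give it. With the other gene on the same strand, as Slc5a3 over 43.8% of the exon bases of Mrps6, no strand setting would separate the reads. Among those tested, Mrps25 shares the most, 53.7% of its exon bases with Nr2c2. Mrpl46 and Mrps11, both members, share 173 bases. The 4 pseudogenes left out had 0 to 48 counts in all libraries together.

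The first question the design poses is how targeting LKB1 in adipocytes changes the tissue. The family as a whole was higher in KO than in WT, by a modest amount in most members, while no single member passed the test. The summed level of the 73 members was 863, 814, 928, 808 and 894 CPM in the 5 WT libraries. In the 5 KO libraries it was 1125, 1105, 1066, 946 and 966 CPM. The lowest KO library was above the highest WT library, and the means were 861 ± 51.5 and 1041 ± 81.3 CPM (SD, n = 5). Cytosolic ribosomal protein genes, which serve the ribosome of the cytosol, did not show this. The sum of 77 of them was 8205 ± 679 CPM for WT and 8248 ± 607 CPM for KO, and the ranges overlapped. KO replicates 1 and 2, with the highest member sums, also had the most total counts of WT and KO, 21570688 and 6048092. The other KO libraries had 2969355 to 3243584 total counts, inside the WT range of 2181109 to 4062909. The part of total counts in the members' sums was not tested.

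**Figure D2:**
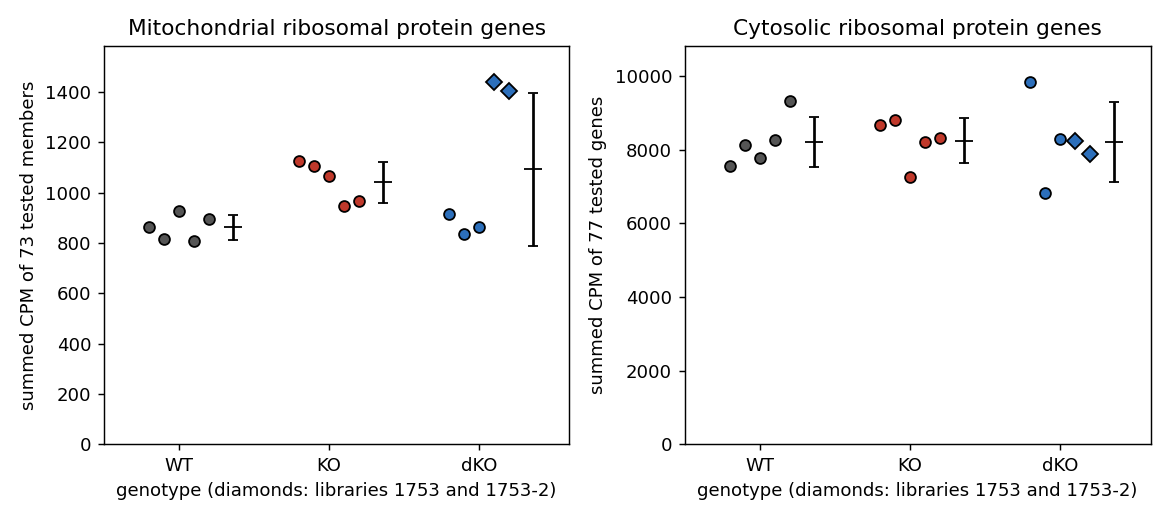
Summed CPM (y axis) of the mitochondrial (left) and cytosolic (right) ribosomal protein genes in each library, by genotype (x axis). Bars give the mean and SD of 5 libraries, and diamonds are the libraries labelled 1753 and 1753-2. On the left every KO point is above every WT point and the dKO points form a low group of 3 and a high pair, and on the right the groups overlap.

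Of the 73 members, 63 had a positive log2 fold change in KO, which is 86.3% against 50.6% of all genes tested. The median log2 fold change was 0.30, beside 0.01 for all genes and 0.01 for the cytosolic ribosomal protein genes. By edgeR 0 of 73 passed an adjusted p of 0.05 in either direction, where 0.435% of all genes passed as higher and 0.189% as lower. At an unadjusted p under 0.05 there were 7 higher members (9.59% against 5.65% of all genes) and 0 lower (3.89%). DESeq2 and voom each called 1 member higher, Mrps33, which is 1.37% of the members, beside 0.935% of all genes by DESeq2 and 1.38% by voom. Both called 0 members lower (0.509% and 0.878% of all genes). In 3 members, Mrpl40, Mrps22 and Mrps35, every KO library was above every WT library (4.11% against 2.11% of all genes), and 0 were wholly lower (1.05%). Without the 2 libraries labelled 1753, Mrps22 passed as higher and 0 members as lower (1.55% and 0.595% of all genes), and the median was 0.29. At an unadjusted p under 0.05 there were then 15 higher (20.5% against 7.39%) and 0 lower (5.48%).

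Among small-subunit proteins, Mrps33, a protein with no bacterial counterpart (ENSMUSG00000029918, mm9 chr6:39751803-39760987, minus strand, 3 exons), had the highest fold change of the family. It had 3.92, 8.06, 3.27, 4.20 and 6.14 CPM in WT, 8.57, 9.75, 11.6, 7.19 and 13.1 CPM in KO and 5.19, 8.54, 8.08, 8.64 and 8.65 CPM in dKO. The 3 highest values were all in KO, and 1 KO library lay below the highest WT library. The log2 fold change in KO was 0.94 (SE 0.26, adjusted p = 0.127), a 1.92-fold difference that missed the threshold. DESeq2 gave it an adjusted p of 0.0488 and voom one of 0.0284.

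Mrps22, also specific to mitochondria and known in humans as a gene whose mutation causes a deficiency of respiratory chain enzymes (ENSMUSG00000032459, mm9 chr9:98489152-98502098, minus strand, 8 exons), followed it. WT libraries had 8.89, 6.51, 9.21, 6.10 and 7.21 CPM and KO libraries 15.5, 14.5, 12.04, 12.1 and 11.3 CPM. All KO values were above all WT values. The log2 fold change was 0.80 (SE 0.32, adjusted p = 0.394), and 0.79 with an adjusted p of 0.0462 once the libraries labelled 1753 were left out. In dKO it was at 10.4, 11.05, 5.60, 25.3 and 26.8 CPM, so that 2 libraries were just above WT, 1 was below it, and the libraries labelled 1753 were above all others.

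The small-subunit proteins as a class had a median log2 fold change of 0.26 in KO, with 20 of 24 positive. The 8 without a bacterial counterpart had a median of 0.46, and the 16 with one had 0.23. In the large subunit the same split gave 0.33 for 18 genes and 0.27 for 30. Mrps18a, described below with its paralogs, was counted among the 18, although it is related to a bacterial protein. Mrps12 sits at the decoding centre and is the counterpart of the bacterial protein in which streptomycin resistance arises. It had 4.24 ± 1.74 CPM in the WT group and 4.86 ± 1.48 CPM in the KO group (SD, n = 5), with overlapping ranges and a log2 fold change of 0.17 (SE 0.31, adjusted p = 0.931). Mrps11, the counterpart of a bacterial protein of the small-subunit platform, was among the 3 lowest at -0.23 (SE 0.36, adjusted p = 0.916).

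Among large-subunit proteins, Mrpl40, specific to mitochondria (ENSMUSG00000022706, mm9 chr16:18872111-18876860, minus strand, 4 exons), had the highest value. It had 5.23, 1.86, 3.27, 4.96 and 5.34 CPM in the WT group and 9.10, 5.95, 7.31, 5.47 and 5.44 CPM in the KO group. The lowest KO library was just above the highest WT library. The log2 fold change was 0.71 (SE 0.27, adjusted p = 0.363). In dKO it was at 6.82, 7.03, 8.08, 10.98 and 8.98 CPM, all above the WT libraries, which makes it the member that separated dKO from WT in every library.

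The large-subunit class had a median log2 fold change of 0.30 in KO, with 42 of 48 positive. Mrpl12 forms the stalk that recruits translation factors, and it also binds the mitochondrial RNA polymerase. It had 3.95 ± 1.48 CPM in the WT group and 5.24 ± 1.62 CPM in the KO group (SD, n = 5), with a log2 fold change of 0.45 (SE 0.38, adjusted p = 0.808) and overlapping ranges. Mrpl45, at the polypeptide exit tunnel where the ribosome attaches to the inner membrane, was at 7.82 ± 1.71 and 9.65 ± 1.36 CPM, with 0.31 (SE 0.23, adjusted p = 0.765). The lowest large-subunit members were Mrpl23 at -0.23 (SE 0.35, adjusted p = 0.910) and Mrpl55 at -0.21 (SE 0.28, adjusted p = 0.898). Summed large-subunit to small-subunit levels stayed between 2.00 and 2.31 in all 15 libraries, a ratio of read counts that also carries the lengths of the genes.

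The 3 Mrps18 genes are paralogs of a single bacterial protein and occupy different places, Mrps18a in the large subunit and Mrps18b and Mrps18c in the small one. Mrps18a had 9.34 ± 1.77 CPM in the WT group and 8.33 ± 1.92 CPM in the KO group, with a log2 fold change of -0.11 (SE 0.23, adjusted p = 0.943). Mrps18c was at 13.02 ± 3.40 and 13.3 ± 4.64 CPM, with 0.090 (SE 0.29, adjusted p = 0.968), and Mrps18b was too low to test. The direction of neither Mrps18a nor Mrps18c held in all alternatives. Mrps36, which in mammals joins subunits of the 2-oxoglutarate dehydrogenase complex, had 6.54, 3.41, 5.94, 3.05 and 8.01 CPM in the WT group and 8.23, 7.27, 10.7, 8.06 and 9.07 CPM in the KO group. The groups overlapped, since 1 WT library lay above the lowest KO library, and the log2 fold change was 0.64 (SE 0.26, adjusted p = 0.400).

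Further members with an unadjusted p under 0.05 in KO were Mrpl2 (0.55), Mrpl38 (0.45) and Mrps21 (0.48 on the log2 scale). These 3, and Mrps35 above, were singled out after their values were seen. Log2 fold changes over the family ran from -0.23 to 0.94, with quartiles of 0.17 and 0.40.

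**Figure D3:**
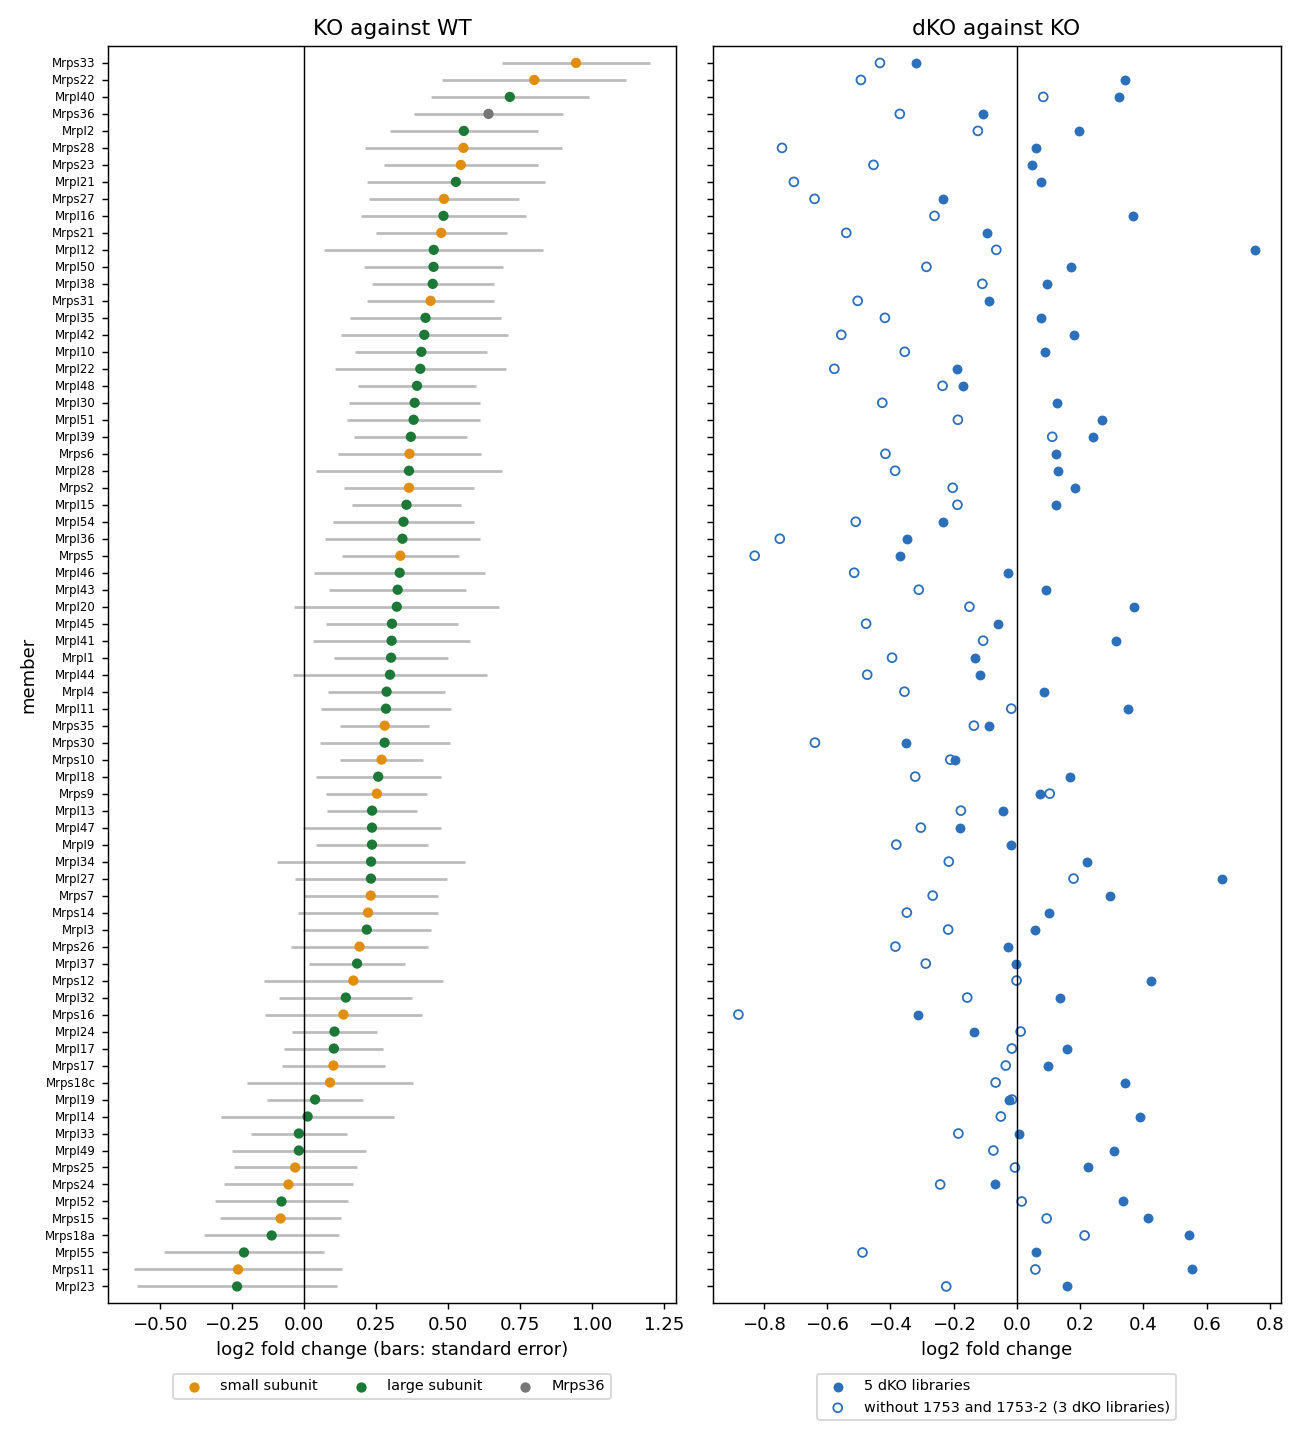
Log2 fold changes (x axis) of the 73 tested members (y axis, in the same order in both panels), for KO against WT with standard errors (left; orange small subunit, green large subunit, grey Mrps36) and for dKO against KO (right). Filled points use 5 dKO libraries and open points leave out the libraries labelled 1753, which takes the median from 0.09 to -0.26.

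**Figure D4:**
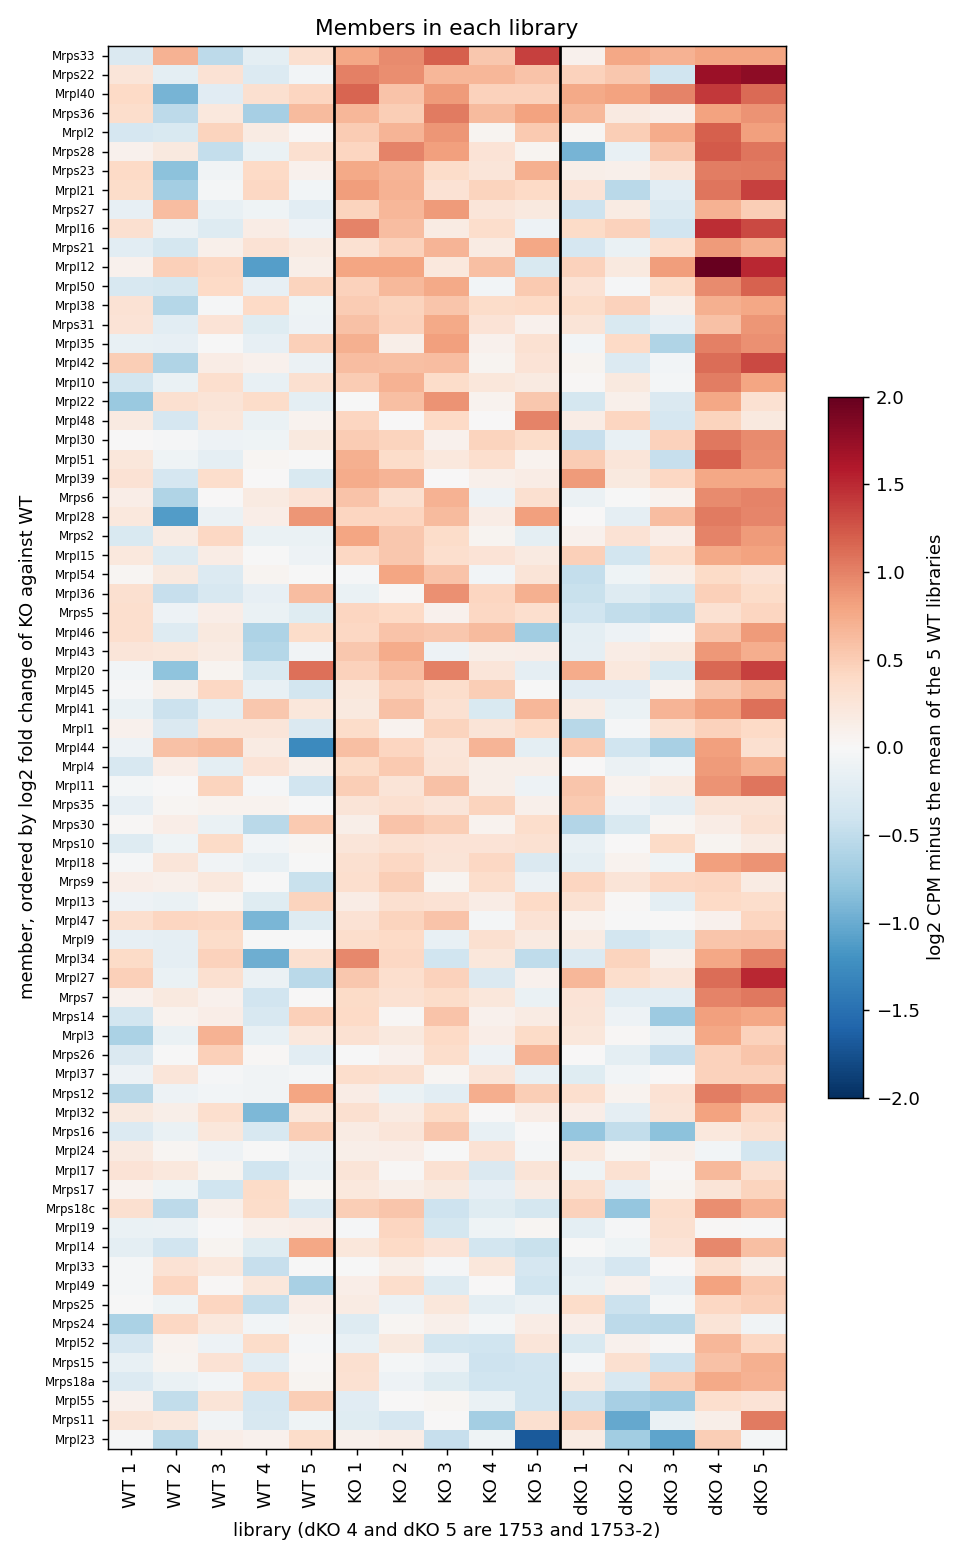
Log2 CPM of each tested member (y axis, ordered by fold change in KO) in each library (x axis), minus its mean in WT; red is higher and blue lower than WT. The KO columns are mostly pale red, dKO 1 to 3 resemble WT, and dKO 4 and 5, the libraries labelled 1753, are the reddest.

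Other measures differed between the same KO and WT libraries. The 8 tested brown and beige adipocyte markers (of 9 listed; Elovl3 was too low) summed to 63.8 to 124 CPM in WT and 516 to 1353 CPM in KO. The 12 macrophage markers summed to 908 to 1772 CPM in WT and 761 to 1023 CPM in KO, with 12 of 12 negative log2 fold changes. The 12 tested skeletal muscle markers (of 16 listed, Tnnc2 at 0 in every library) summed to 25.9 to 1381 CPM in WT and 96.04 to 3748 CPM in KO. The highest sums were in WT replicate 1 and KO replicate 3. Muscle is rich in mitochondria. With the muscle markers as a covariate the median log2 fold change of the members was 0.32. The 8 adipocyte markers overlapped, with 3756 to 6096 CPM in WT and 4361 to 5598 CPM in KO. The part of the beige, macrophage and muscle content in the result was not tested.

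The second question is how targeting HDAC4 as well changes this. The answer turned on the libraries labelled 1753, since the summed level of the members was within the WT range in 3 dKO libraries and above every other library in these 2. The summed level was 915, 837, 863, 1439 and 1406 CPM in the 5 dKO libraries. The first 3 lay within the WT range and below all KO libraries, and the last 2 were above all KO libraries. The mean of all 5 was 1092 ± 303 CPM, and the mean of the first 3 was 872 ± 39.7 CPM (SD, n = 3). The first 3 had 1564004 to 4388048 total counts and the last 2 had 8305796 and 12089891. The part of total counts in this difference was not tested.

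With all 5 dKO libraries, 0 of 73 members passed for dKO against KO by edgeR, where 0.041% of all genes passed as higher and 0.0328% as lower. DESeq2 also called 0 (0.156% of all genes higher, 0.148% lower), as did voom (0.0656% and 0.0082%). At an unadjusted p under 0.05 there were 3 higher, Mrpl12, Mrpl27 and Mrps18a (4.11% against 3.32% of all genes), and 0 lower (2.85%). The median log2 fold change was 0.09, beside 0.00 for all genes, with 47 positive (64.4% against 50.4%) and 26 negative (35.6% against 49.6%). No member separated the libraries completely, in either direction, against 0.656% and 0.5% of all genes.

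Without the libraries labelled 1753 the sign turned. Then 64 of 73 members were lower in dKO than in KO (87.7% against 50.1% of all genes), with a median of -0.26. Again 0 passed by edgeR (0.103% of genes higher, 0.0476% lower), with 11 lower (15.1% against 5.4%) and 0 higher (3.96%) at an unadjusted p under 0.05. In 10 members all 3 dKO libraries were below all 5 KO libraries (13.7% against 3.95% of all genes), and in 0 above (3.27%). The 10 were Mrps5, Mrps16, Mrps22, Mrps23 and Mrps27 of the small subunit and Mrpl4, Mrpl21, Mrpl36, Mrpl55 and Mrps30 of the large one, listed after their values were seen.

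The summed level of brown and beige adipocyte markers was also lower in dKO than in KO. The 8 tested summed to 516 to 1353 CPM in KO and 248 to 407 CPM in dKO, the libraries labelled 1753 included, so the groups did not overlap. All 8 had a negative log2 fold change, with a median of -0.76, or -0.996 without the pair. By edgeR 1 of them, Ucp1, the uncoupling protein of thermogenic fat, fell, with -2.31 (SE 0.39, adjusted p = 0.0393), and without the pair it was at -2.27 with an adjusted p of 0.185, while Otop1, at -1.29, passed (adjusted p = 0.00574). The 12 skeletal muscle markers had a median of -2.09, or -1.58 without the pair, with overlapping sums of 96.04 to 3748 CPM in KO and 41.7 to 530.3 CPM in dKO. With the muscle markers as a covariate the median of the members for dKO against KO was 0.072 with all libraries. The part of beige and muscle content in the members' levels was not tested.

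Mrps5, a small-subunit protein with a bacterial counterpart that lies at the mRNA entrance in bacteria (ENSMUSG00000027374, mm9 chr2:127412958-127432565, plus strand, 12 exons), had the lowest value for dKO against KO. It had 18.6, 13.6, 16.04, 13.4 and 12.3 CPM in the WT group and 19.9, 19.3, 15.5, 19.6 and 18.5 CPM in the KO group. The first 3 dKO libraries had 11.04, 10.3 and 9.95 CPM and the libraries labelled 1753 had 18.2 and 19.9 CPM. The first 3 were below every WT and KO library, and the other 2 within the KO range or close to it. The log2 fold change was -0.37 (SE 0.20, adjusted p = 0.824) with all libraries, and -0.83 with an adjusted p of 0.107 without the pair.

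Mrps30, a large-subunit protein despite its symbol, was at 10.8 ± 1.68 CPM in KO and 8.21 ± 2.05 CPM in dKO, with -0.35 (SE 0.22, adjusted p = 0.841). Mrpl36, a small zinc-binding protein of the large subunit in bacteria, was at 15.4 ± 4.73 and 11.3 ± 3.56 CPM, with -0.35 (SE 0.26, adjusted p = 0.860). Both had overlapping ranges with 5 dKO libraries. Without the pair they were at -0.64 and -0.75 on the log2 scale.

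Mrpl12 (ENSMUSG00000039640, mm9 chr11:120345927-120350379, plus strand, 5 exons) had the highest value for dKO against KO. KO libraries had 6.63, 6.61, 4.30, 5.76 and 2.90 CPM, and dKO libraries 5.19, 4.27, 6.84, 16.3 and 11.2 CPM. The first 3 dKO libraries lay at or near KO levels and the pair was above them. The log2 fold change was 0.75 (SE 0.34, adjusted p = 0.790), and without the pair -0.065. Mrpl27, a large-subunit protein next to the peptidyl transferase centre in bacteria (ENSMUSG00000024414, mm9 chr11:94515081-94521403, plus strand, 5 exons), was at 14.6, 12.6, 13.8, 8.06 and 10.5 CPM in KO and 15.9, 12.8, 11.8, 21.96 and 28.7 CPM in dKO. Its pair was again the highest, and its log2 fold change was 0.65 (SE 0.25, adjusted p = 0.738), or 0.18 without the pair. Mrps11 was the other of the 3 highest, at 0.55 (SE 0.34, adjusted p = 0.834), and Mrps18a was at 0.55 (SE 0.23, adjusted p = 0.762). Without the pair they were at 0.058 and 0.21.

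**Figure D5:**
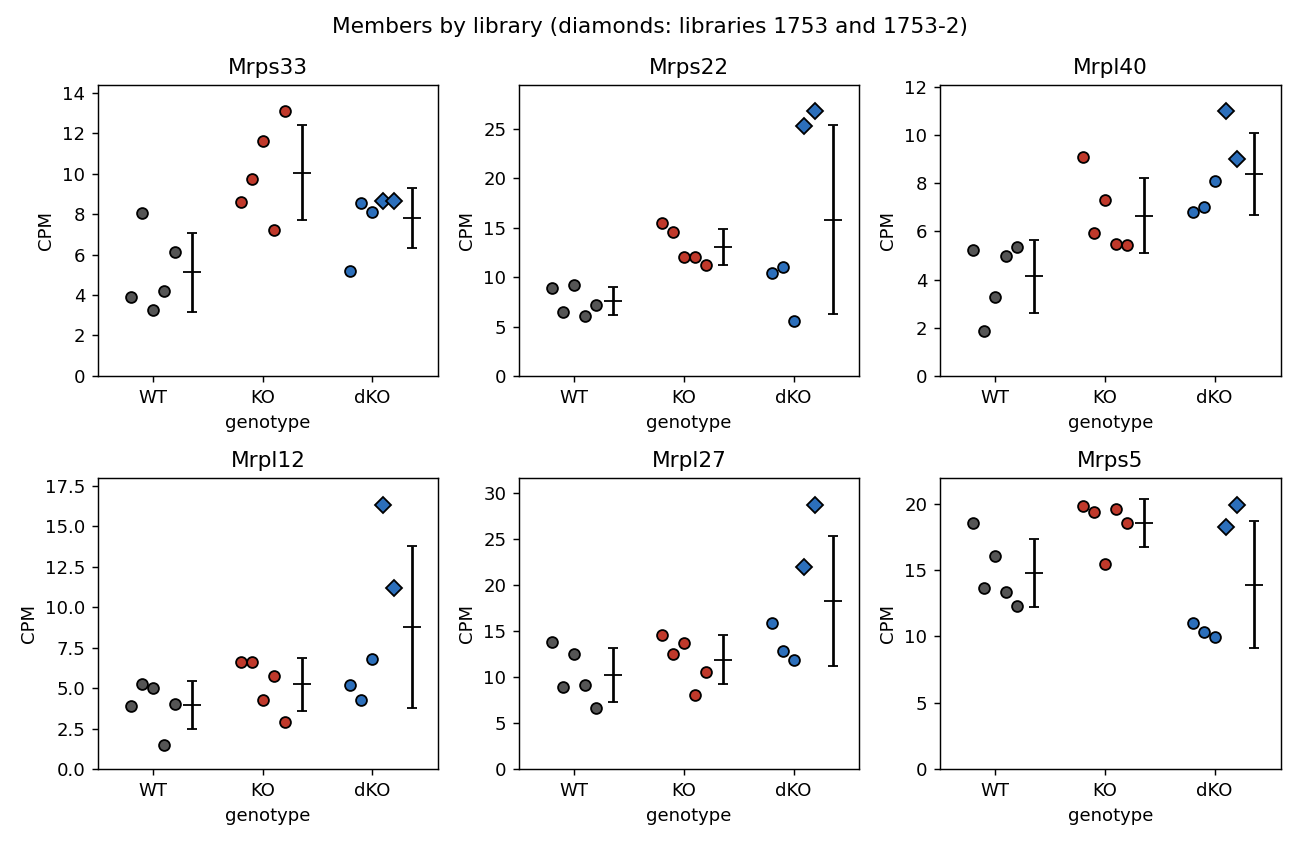
CPM (y axis, from 0) of 6 members in each library, by genotype (x axis), with the mean and SD of 5 libraries. Diamonds are the libraries labelled 1753. KO points of Mrps22 are all above WT, the diamonds of Mrps22, Mrpl12 and Mrpl27 are the highest points, and the 3 dKO circles of Mrps5 are the lowest.

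For dKO against WT, which shares its libraries with the 2 comparisons above, 0 of 73 members passed by edgeR (0.427% of all genes higher, 0.189% lower). DESeq2 called 1 higher, Mrpl40, which is 1.37% of the members beside 1.21% of all genes, and none lower (0.722%). By voom there were none in either direction (0.189% and 0.041% of all genes). At an unadjusted p under 0.05 there were 19 higher (26.0% against 9.01%) and 0 lower (5.51%). The median was 0.35 beside -0.00 for all genes, with 64 positive (87.7% against 49.7%) and 9 negative (12.3% against 50.3%). Every dKO library was above every WT library in 1 member, Mrpl40 (1.37% against 1.3% of all genes). The highest values were 1.20 (SE 0.37, adjusted p = 0.151) for Mrpl12, 1.14 (SE 0.31, adjusted p = 0.120) for Mrps22 and 1.04 (SE 0.27, adjusted p = 0.0980) for Mrpl40. The lowest were -0.18 for Mrps16, -0.15 for Mrpl55 and -0.12 for Mrps24, none of which had an unadjusted p under 0.05.

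Without the pair the median for dKO against WT was -0.025, with 34 positive (46.6% against 50.1% of all genes) and 39 negative (53.4% against 49.9%). Mrpl40 stayed at 0.79 and Mrps33 at 0.49 on the log2 scale, whereas Mrpl12 was at 0.38 and Mrps22 at 0.30. Mrps16, Mrpl55, Mrps5 and Mrps24 were at -0.76, -0.71, -0.51 and -0.31. By edgeR 0 members passed as higher (0.167% of all genes) and 0 as lower (0.0714%). The unadjusted p was under 0.05 for 2 higher members (3.38% of all genes) and for 3 lower ones (4.52%). All 3 dKO libraries were above all WT libraries in Mrpl40 and Mrps9 (2.74% against 2.68% of all genes), and below them in Mrps5 and Mrps16 (2.74% against 2.53%).

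The libraries labelled 1753 were above all 13 others in 36 of 73 members (49.3% against 15.1% of all genes) and below all in 0 (14.4%). Against the 3 other dKO libraries alone, both were higher in 61 members (83.6% against 30.4%) and lower in 1, Mrpl24 (28.4%). Mrpl42 had 44.03 and 50.9 CPM in the pair and 20.8, 16.6 and 19.3 CPM in the other 3. Cytosolic ribosomal protein genes did not follow, with sums of 8227 and 7868 CPM in the pair, inside the range of the other dKO libraries.

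The pair also differed in cell markers. The 14 T and B cell markers summed to 298 and 292 CPM in the pair and to 778 to 1419 CPM in the other 13 libraries. The 8 adipocyte markers summed to 7608 and 7489 CPM against 3756 to 6096 CPM, and Adipoq, Plin1 and Fabp4 were far from 0 everywhere. The 12 macrophage markers, at 702 and 709 CPM, were the lowest of all 15 libraries, the next being at 754 CPM. Brown and beige markers, at 399 and 376 CPM, lay among those of the other dKO libraries. With the T and B cell markers as a covariate the median of the members was 0.27 for KO against WT, -0.18 for dKO against KO and 0.042 for dKO against WT. These markers were low only in the pair, so this covariate cannot be told apart from whatever else set the pair apart. The part of T and B cell, adipocyte and macrophage content in the members' levels was not tested.

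The rest of the mitochondrial translation system was described from lists of known genes, and no gene in them passed by edgeR with all 15 libraries. Genes named from these lists were picked after their values were seen. Over all genes tested, 50.6% were positive in KO and 5.65% were higher at an unadjusted p under 0.05. The 7 subunits whose symbols follow another scheme had a median log2 fold change of 0.33 in KO, with 5 positive and 2 higher at an unadjusted p under 0.05. Ptcd3, a small-subunit protein that binds RNA, had 34.5 ± 3.27 CPM in the WT group and 47.5 ± 4.05 CPM in the KO group, with 0.47 (SE 0.15, adjusted p = 0.241). Aurkaip1, another small-subunit protein, had 0.53 (SE 0.22, adjusted p = 0.439). Dap3, the small-subunit protein that binds GTP, had -0.018 (SE 0.19, adjusted p = 0.991). For dKO against KO their median was 0.18, and -0.06 without the pair.

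The 13 tested translation factors (of 14) had a median of 0.30 in KO, with 12 positive and 2 higher at an unadjusted p under 0.05 (5.65% of all genes). Gfm1, the elongation factor that moves the ribosome along the mRNA, had 28.8, 23.9, 29.99, 28.99 and 25.1 CPM in the WT group and 52.6, 49.9, 44.7, 45.5 and 31.6 CPM in the KO group. Every KO library was above every WT library, as in 2.11% of all genes. The log2 fold change was 0.72 (SE 0.21, adjusted p = 0.157). Without the pair the adjusted p by edgeR was 0.00701, where 1.55% of all genes passed as higher. Mtif2, the initiation factor, had 0.48 (SE 0.16, adjusted p = 0.270). For dKO against KO the median of the factors was 0.12, and without the pair 13 of 13 were negative with a median of -0.29.

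Genes that assemble the ribosome or modify its RNA were without a common direction in KO. The median of 19 tested (of 21) was 0.02, with 11 positive, and single values ran from -0.59 for Rpusd4, a pseudouridine synthase, to 0.77 for Ddx28, an RNA helicase. The 17 mitochondrial aminoacyl-tRNA synthetases, which charge tRNAs, had a median of 0.14 with 12 positive. The 17 genes of mitochondrial DNA transcription, RNA processing and RNA stability had a median of 0.19 with 16 positive, and Tfb2m, a transcription factor of mitochondrial DNA, had 0.45 (SE 0.16, adjusted p = 0.302). For dKO against KO these 3 lists had medians of 0.0012, 0.028 and -0.0029, and without the pair 0.0097, -0.054 and -0.087.

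The messenger RNAs that the mitochondrial ribosome translates were measured in the same libraries. The 12 tested (of 13) summed to 44927, 60747, 56618, 35613 and 69463 CPM in WT. In KO they summed to 70075, 62672, 108725, 48291 and 76327 CPM, and in dKO to 32513, 60244, 46105, 51547 and 53956 CPM. The groups overlapped, and the KO library with the most was the one with the most muscle markers. All 12 had a positive log2 fold change in KO (50.6% of all genes), with a median of 0.58. Of these, 7 were higher at an unadjusted p under 0.05 (5.65% of all genes) and 0 passed (0.435%). For dKO against KO all 12 were negative (49.6% of all genes), with a median of -0.64, and without the pair the median was -0.74. With all libraries 9 were lower at an unadjusted p under 0.05 (2.85% of all genes). In the libraries labelled 1753 these messenger RNAs summed to 51547 and 53956 CPM, within the range of the other 3 dKO libraries, whereas the ribosomal proteins were above it.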

How the data were processed

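The authors deposited raw counts per gene with gene annotation, per the file headers, and the feature length of each gene in bases was deposited beside them by the authors. Per the submitters' processing notes, FastQC, Subread, featureCounts, edgeR and the mm9 build were used; the sources used here give neither versions, roles nor the strand setting. The 45 other per-sample columns were not used. The libraries were made with Ovation kits from total RNA, per the labels' protocols.

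From the counts, genes with at least 10 counts by edgeR's filter and 15 in all were kept, TMM-normalised, and fitted in 1 edgeR quasi-likelihood model (robust, all 15 libraries, a term per genotype, 12 residual degrees of freedom), with two-sided tests and Benjamini-Hochberg adjustment over all 12188 genes tested at 0.05. Standard errors were taken from the log2 fold change and the test statistic. R 4.3.3, edgeR 4.0.16, limma 3.58.1 and DESeq2 1.42.0 were used. The fit was also run on counts simulated with a fixed spread and with changes in KO larger than those of the members. That run does not check the results given here. CPM divides by TMM-scaled totals of the tested genes, mitochondrial ribosomal RNAs included, so levels are relative to these. Log2 CPM used a prior count of 2.

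Named members are the 3 highest and 3 lowest log2 fold changes in each comparison, the 3 highest and 3 lowest WT levels per length, any member called, and Mrpl12, Mrps12, Mrps18a, Mrps18b, Mrps18c, Mrpl45 and Mrps36. The members and gene lists were chosen with earlier results of these data known. Alternatives changed the scaling, the expression filter, the test (DESeq2, voom with sample weights), the libraries in the fit, the treatment of the libraries labelled 1753, the mitochondrial ribosomal RNAs and marker covariates, and left out each library in turn. Promoter windows came from RefSeq on GRCm38.p6, another build than that of the counts, and were joined by gene symbol only.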

Additional observations from a re-analysis of the deposited data

Results flagged for a closer look

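Distant values were looked for in 81 sets of 5 values from the 3 genotypes. The sets were the CPM of the tested named members, the summed levels of the family and its subunits, and the large-to-small ratio. By Dixon's test at the 95% level 2 sets held a value far from the other 4, and chance gives about 1 in 20. Mrps12 was at 7.21 CPM in WT replicate 5, whereas the other 4 WT libraries were between 2.62 and 3.86 CPM. Mrps33 was at 5.19 CPM in dKO replicate 1, whereas the other 4 dKO libraries were between 8.08 and 8.65 CPM. Both genes had few counts, with 8 to 94 per library for Mrps12 and 11 to 177 for Mrps33. The libraries labelled 1753 were not picked out by this test, which looks for 1 distant value.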

How the results depend on the processing

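No paired analysis was possible because the labels give no replicate numbers that the genotypes share. The median log2 fold change of the members for KO against WT kept its direction under all 25 alternatives, and was 0.26 to 0.33 with each library left out. The count of 0 members passing for KO against WT became 1 with DESeq2 and with voom (Mrps33), 1 with only WT and KO in the fit and 1 without the libraries labelled 1753 (Mrps22), and 2 with the T and B cell covariate (Mrps22 and Mrps33). The genes called higher among all tested rose in number as well, from 53 to 114, 168, 164, 195 and 263 in that order.

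For dKO against KO the median of 0.09 turned to -0.030 with voom, -0.024 with the libraries labelled 1753 summed, -0.26 without them and -0.18 with the T and B cell covariate, and ran from -0.056 to 0.18 with each library left out. It was -0.056 without dKO replicate 4 and -0.018 without dKO replicate 5. For dKO against WT the median of 0.35 was -0.025 without the libraries labelled 1753 and 0.042 with the T and B cell covariate, and the count of 0 became 1 with DESeq2 (Mrpl40) and ran from 0 to 1 with each library left out (Mrps22, without dKO replicate 1 or 3), where the genes called higher went from 52 to 147, 174 and 69. The causes of these changes were not tested. The median moved by less than the spread between libraries, a pooled SD of 0.23, under the other alternatives. Set against WT, the members' median had an SD of 0.094 in WT, 0.13 in KO and 0.39 in dKO. The pooled value is therefore large because of dKO, and a move smaller than it says little of stability.

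Of 29 fold changes of named members, 5 changed sign in at least 1 of the 25 alternatives. Mrpl12 for dKO against KO was at -0.065 without the libraries labelled 1753. For KO against WT, Mrpl52 and Mrps18a were at 0.054 and 0.041 with the skeletal muscle covariate, and with each library left out Mrpl52 ran from -0.17 to 0.013, Mrps25 from -0.14 to 0.085 and Mrps18c from -0.058 to 0.17. The thinnest library had 1390 member counts. The standard errors hold counting error and the spread between libraries together, and differences well under them could not be detected here.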
